A study of Mus musculus with 2 samples.

Results

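Kinesin and tubulin transcripts of mouse osteoclast precursors were read on Illumina arrays, in cells cultured with or without RANKL, the cytokine that starts osteoclast formation. The 54 array genes described here are those whose array name starts with KIF and a digit, KLC, TUBA, TUBB or TUBG, of 31492 array genes in all. They stand for 53 current gene symbols, since TUBA1 and TUBA1A are both names of Tuba1a. Members comprise 6 kinesins of mitosis named in the selection (Kif11, Kif20a, Kif22, Kif23, Kif2c and Kif4), 16 kinesins and light chains of cargo transport, 12 other kinesins, 14 alpha and beta tubulins, and 6 genes of gamma tubulin and its ring complex.

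Bone marrow cells of C57BL/6 mice aged 8 weeks were sorted as CD3-, CD45R-, CD11b lo/- and CD115+, where CD115 is the receptor for M-CSF. One group was cultured for 3 days with M-CSF (30 ng/ml), which keeps precursors alive and dividing. The other received M-CSF and RANKL, each at 30 ng/ml. RNA came from the adherent cells, so both groups are mixtures of whatever adhered. Each group is the authors' mean of 3 biological replicates on separate arrays, deposited with its SD, so values of single arrays are not given below, and every mean ± SD has n = 3. What made the replicates separate is not stated, so p-values measure only the spread between these samples, which may be technical.

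Microtubules are polymers of alpha and beta tubulin dimers, and gamma tubulin complexes start their growth. Kinesins are motors that use ATP to walk along microtubules, mostly towards the plus end, or to take their ends apart. One set builds the spindle, moves chromosomes and finishes cell division, and another carries vesicles and organelles. In osteoclasts, microtubules shape the podosome belt and guide lysosome-related vesicles to the ruffled border, where bone is resorbed.

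Intensities are linear and normalized, and array genes that were not detected read about 145 in both groups. A member was tested when its deposited detection p was under 0.01 in at least 1 group. The test is a moderated test on the log2 ratio of the means, built from the deposited SDs with limma and adjusted by the Benjamini-Hochberg method over all 11012 tested genes. "Rose" and "fell" are used for an adjusted p under 0.05. Folds are ratios of the means, and "at least" marks a fold taken to the lowest reliably detected signal, 198 with M-CSF and 196 with RANKL. Detected osteoclast markers all rose (8 tested of 10), and 9 of 10 tested monocyte and macrophage markers fell while Cd68 did not pass. Csf1r, the gene of CD115, was detected in both groups, at 18261 with M-CSF and 12688 with RANKL. The 6 T and NK cell markers were not detected in either group. Granulocyte markers were detected, and 2 of 4 tested (S100a8 and S100a9) fell. Of the B cell markers Cd79b was detected and fell from 286 ± 7.64 to 205 ± 21.3, and of the megakaryocyte markers Pf4 was detected and fell from 36027 ± 5615 to 1541 ± 220.6. The summed granulocyte marker signal over 5 array genes went from 13676 with M-CSF to 10142 with RANKL. This sum includes Mpo, which varied widely between arrays and did not pass, at 4720 ± 2588 and 3400 ± 1525. Fewer cells of a type and less RNA per cell cannot be told apart here, and the part of any change in cell makeup in the values below was not tested.

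Of the 54 members, 28 passed the detection filter, of which 4 rose, 15 fell and 9 did not pass. Over all tested genes 57.8% were called, 28.9% higher and 29.0% lower with RANKL. Falls among the tested members (53.6%) were thus more frequent than over all genes, and rises (14.3%) less frequent. The median log2 fold of the tested members was −0.33, against −0.00 over all tested genes. Among the 24 members detected in both groups, 3 rose and 13 fell. Under that filter 5186 genes were called over the whole array, and their shares by direction are not given here. The ranges of 1 SD around the 2 means did not overlap for 20 of the 28 tested members, against 62.3% of all tested genes. Only 4 members changed at least 2-fold, all of them downwards (TUBB2B, TUBA1, KIF23 and KIF11).

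**Figure D1:**
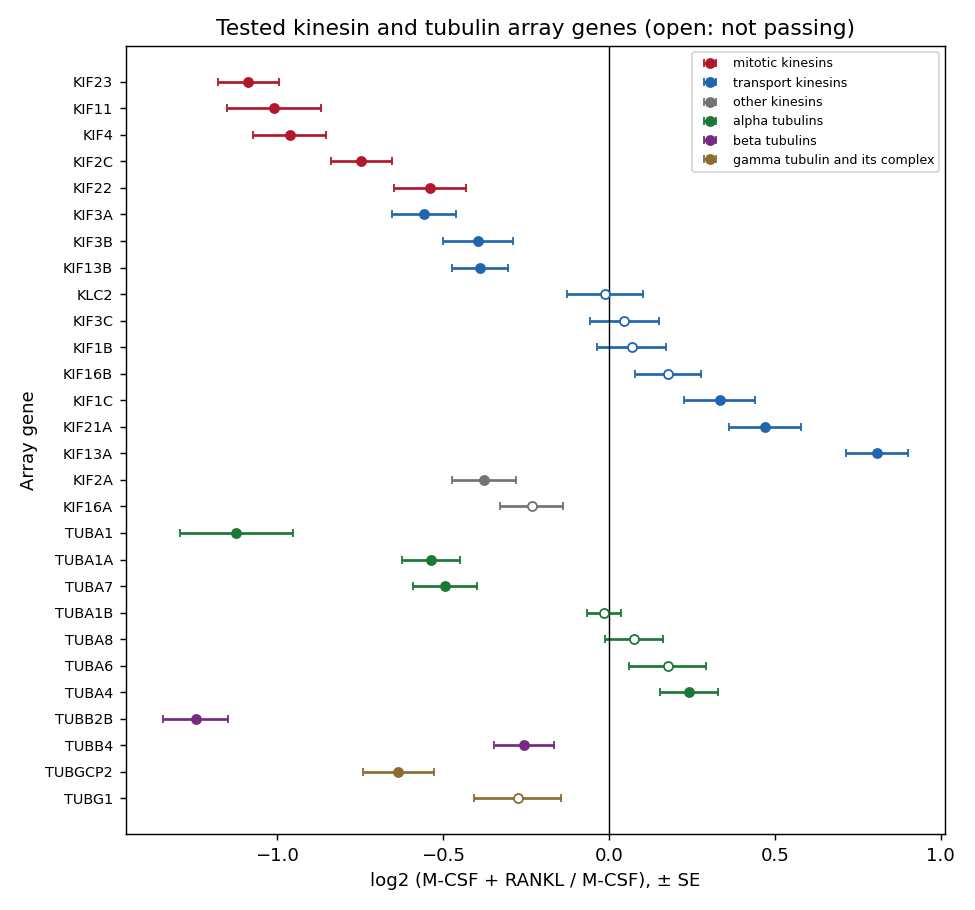
The log2 ratio of M-CSF + RANKL over M-CSF ± SE for the 28 tested members, by class, where filled points passed the test and open points did not. The 5 mitotic kinesins lie between −1.09 and −0.54, whereas the transport kinesins lie on both sides of 0, from −0.56 to 0.81.

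The mitotic kinesins fell together. All 5 that were detected were lower with RANKL, with a median log2 fold of −0.96, or −1.13 after subtraction of the background signal. KIF23 (Kif23, also MKLP1), the motor of the centralspindlin complex that bundles midzone microtubules for cytokinesis, read 5624 ± 47.6 with M-CSF and 2649 ± 230 with RANKL. It was 2.12-fold lower (log2 −1.09 ± 0.09 SE, adjusted p = 9.64e-07, limma). KIF11 (Kif11, also Eg5), which slides antiparallel microtubules to push the spindle poles apart, read 1724 ± 362 and 857 ± 64.8. It was 2.01-fold lower (log2 −1.01 ± 0.14 SE, adjusted p = 7.28e-05, limma). Its SD with M-CSF, 21.0% of the mean, was the widest of the 5, and the ranges of 1 SD still did not overlap. With KIF11 tested alone on the linear means, without moderation, its adjusted p was 0.0989.

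KIF4 (Kif4), a chromokinesin that acts in chromosome condensation and in the spindle midzone, read 1420 ± 49.5 with M-CSF and 729 ± 88.0 with RANKL. It was 1.95-fold lower (log2 −0.96 ± 0.11 SE, adjusted p = 1.24e-05, limma). KIF2C (Kif2c, also MCAK), which takes microtubule ends apart at kinetochores so that wrong attachments are released, read 2620 ± 117 and 1563 ± 64.9. It was 1.68-fold lower (log2 −0.75 ± 0.09 SE). KIF22 (Kif22, also Kid), a chromokinesin that pushes chromosome arms towards the spindle equator, read 4208 ± 407 and 2898 ± 300.0. It fell least of the 5, 1.45-fold (log2 −0.54 ± 0.11 SE, adjusted p = 0.00112, limma), and its adjusted p was 0.0891 with both SDs doubled. KIF20A (Kif20a), which carries the chromosomal passenger complex to the midzone, read 145 ± 8.08 and 151 ± 2.65. These are background levels in both groups, so nothing can be said of a change in Kif20a.

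A second array gene bears on Kif23. KNSL5, an older name that the RefSeq table gives only to Kif23, read 969 ± 59.0 with M-CSF and 967 ± 79.1 with RANKL (log2 −0.00 ± 0.10 SE, adjusted p = 0.984, limma). The 2 array genes of Kif23 therefore disagree, KIF23 falling 2.12-fold and KNSL5 not passing. Which transcripts each probe reads was not examined. KNSL1, the older name of Kif11, was at background in both groups, at 138 ± 11.3 and 144 ± 26.7.

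The promoters of the mitotic kinesins are shown because these members fell together and because many genes of late cell cycle carry a cell cycle genes homology region (CHR) and CCAAT boxes, through which the DREAM complex, B-MYB with FOXM1, and NF-Y act. RefSeq promoters (GRCm38.p6, written 5′ to 3′ on the gene's strand) were matched by symbol for 44 of the 53 members, including 5 of the 6 mitotic kinesins. Capitals mark the CHR (TTTGAA or TTCGAA, and TTCAAA as the reverse of the first) and the CCAAT box (CCAAT, or ATTGG on the other strand). No CHR overlaps a CCAAT box in these windows. Kif13a, the transport kinesin with the largest rise, is given for comparison.
Kif11 (chr19:37376132-37376431, plus strand): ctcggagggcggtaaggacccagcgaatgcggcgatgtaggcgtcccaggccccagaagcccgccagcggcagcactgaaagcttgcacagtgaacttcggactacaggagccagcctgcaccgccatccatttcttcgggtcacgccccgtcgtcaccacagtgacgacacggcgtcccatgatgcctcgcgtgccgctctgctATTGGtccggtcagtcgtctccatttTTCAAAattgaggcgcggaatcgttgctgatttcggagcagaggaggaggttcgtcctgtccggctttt
Kif23 (chr9:61946750-61947049, minus strand): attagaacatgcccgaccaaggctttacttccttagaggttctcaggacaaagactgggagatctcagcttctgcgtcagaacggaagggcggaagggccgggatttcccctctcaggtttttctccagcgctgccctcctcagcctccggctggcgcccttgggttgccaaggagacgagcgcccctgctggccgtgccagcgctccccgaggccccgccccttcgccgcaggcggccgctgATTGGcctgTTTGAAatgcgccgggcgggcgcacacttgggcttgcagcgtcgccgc
Kif4 (chrX:100625815-100626114, plus strand): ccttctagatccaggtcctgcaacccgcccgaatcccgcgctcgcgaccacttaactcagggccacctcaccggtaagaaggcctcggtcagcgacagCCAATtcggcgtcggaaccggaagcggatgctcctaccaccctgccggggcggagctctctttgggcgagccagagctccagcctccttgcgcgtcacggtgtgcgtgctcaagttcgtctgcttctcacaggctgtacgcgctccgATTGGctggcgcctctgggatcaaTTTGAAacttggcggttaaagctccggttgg
Kif2c (chr4:117178723-117179022, minus strand): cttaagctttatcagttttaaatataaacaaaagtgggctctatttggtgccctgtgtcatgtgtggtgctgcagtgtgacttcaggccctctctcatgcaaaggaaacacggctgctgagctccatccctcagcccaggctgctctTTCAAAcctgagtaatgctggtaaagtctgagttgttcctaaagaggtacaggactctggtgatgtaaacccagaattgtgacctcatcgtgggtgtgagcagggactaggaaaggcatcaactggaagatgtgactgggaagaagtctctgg
Kif22 (chr7:127042371-127042670, minus strand): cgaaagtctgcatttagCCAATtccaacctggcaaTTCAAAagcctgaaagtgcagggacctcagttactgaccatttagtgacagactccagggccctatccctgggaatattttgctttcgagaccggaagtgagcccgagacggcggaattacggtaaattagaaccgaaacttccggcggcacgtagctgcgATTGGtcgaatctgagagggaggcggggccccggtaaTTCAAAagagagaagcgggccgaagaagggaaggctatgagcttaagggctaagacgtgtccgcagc
Kif13a (chr13:46929669-46929968, minus strand): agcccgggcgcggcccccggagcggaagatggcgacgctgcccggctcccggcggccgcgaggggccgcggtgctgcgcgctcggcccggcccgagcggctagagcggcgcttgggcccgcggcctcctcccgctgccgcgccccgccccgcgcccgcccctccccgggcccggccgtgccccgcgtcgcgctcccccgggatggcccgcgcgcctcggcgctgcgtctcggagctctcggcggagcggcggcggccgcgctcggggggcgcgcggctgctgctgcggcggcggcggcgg

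All 5 mitotic kinesin promoters held a CHR of the TTTGAA form, and 4 of 5 also held a CCAAT box, Kif2c being the exception. Over the 32851 promoters of the table, 19.2% held either CHR form, 37.4% a CCAAT box and 7.52% both. Of 13 promoters of 11 transport kinesins, 1 held a CHR, that of Kif1a at one of its 2 annotated starts, and 4 held a CCAAT box. Over the 48 promoters of all members, 12 (25%) held either CHR form. Of the remaining members Kif14, Kif15, Kif24, Kif26b, Kif27 and Tuba3b held one. Of these only Tuba3b (TUBA7) passed the detection filter, and Kif15 failed it although its signals were well above the floor. Kif2a, which fell, and Kif18a, lower when genes were chosen by signal, held none. Counted from the annotated start to the first base of the match, the CHR lay at −19 in Kif11, −17 and −215 in Kif22, −103 in Kif2c, 3 in Kif23 and 20 in Kif4. A CCAAT box lay upstream of the CHR nearest the start in Kif11 (−45), Kif22 (−54), Kif23 (−7) and Kif4 (−5). Among 31 promoters of spindle and chromosome passenger genes, 77.4% held a CHR and 71% held both motifs. A match describes the letters in this window, and binding was not measured.

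**Figure D2:**
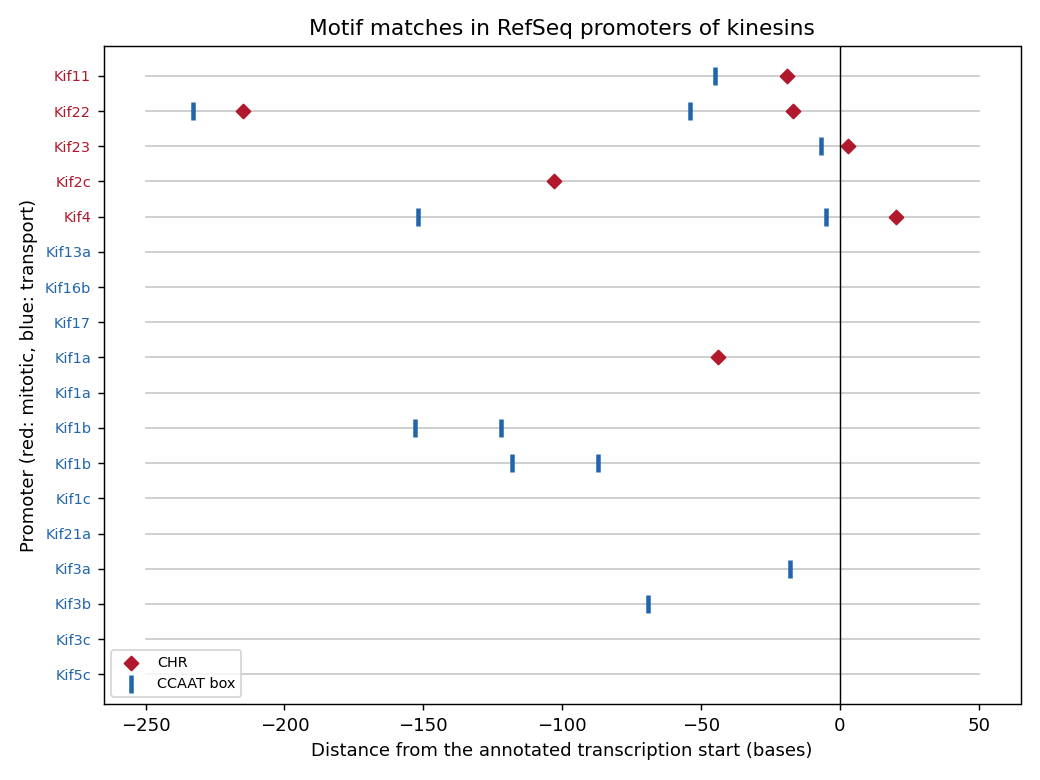
Positions of CHR matches (diamonds) and CCAAT boxes (bars) in RefSeq promoters of mitotic (red names) and transport (blue names) kinesins, as distance in bases from the annotated start. A CHR is seen in all 5 mitotic promoters and in 1 of 13 transport promoters. Promoters of the other members are not drawn.

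Transport kinesins did not move as a group. Of 16 array genes 10 were tested, of which 3 rose, 3 fell and 4 did not pass, near the 28.9% higher and 29.0% lower over all tested genes. Their median log2 fold was 0.06. The largest rise was that of KIF13A (Kif13a), a kinesin-3 motor that carries cargo from the trans-Golgi network and recycling endosomes. It went from 261 ± 17.98 with M-CSF to 456 ± 19.9 with RANKL, a 1.75-fold rise (log2 0.81 ± 0.09 SE, adjusted p = 1.44e-05, limma). After subtraction of background the log2 fold was 1.43, because its M-CSF signal lies close to the background. KIF1C (Kif1c), a kinesin-3 motor that in human macrophages affects podosome turnover, rose 1.26-fold from 489 ± 43.8 to 617 ± 50.04 (adjusted p = 0.0186, limma). Its adjusted p was 0.0711 when tested alone on the linear means and 0.291 with both SDs doubled. KIF21A (Kif21a), which restrains microtubule growth at the cell cortex, rose at least 1.08-fold from an undetected 155 ± 4.50 to 214 ± 33.1. Its call was lost on subtraction of background (adjusted p = 0.353, limma) and with both SDs doubled (adjusted p = 0.135, limma). It was also lost when KIF21A was tested alone on the linear means (adjusted p = 0.148). KIF21A passed the detection filter only through the group where it is high.

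The falls were in kinesin-2 and in a relative of Kif13a. KIF3A and KIF3B are the motor chains of heterotrimeric kinesin-2, known for transport in cilia and of vesicles. KIF3A (Kif3a) read 667 ± 47.2 with M-CSF and 453 ± 14.6 with RANKL, 1.47-fold lower (log2 −0.56 ± 0.10 SE, adjusted p = 0.000381, limma). KIF3B (Kif3b) read 556 ± 38.7 and 423 ± 41.1, 1.31-fold lower (log2 −0.39 ± 0.11 SE, adjusted p = 0.00724, limma). Kifap3, the third subunit of that motor and not itself a member, was also lower, at 688 ± 63.1 and 507 ± 18.4 (log2 −0.44 ± 0.10 SE, adjusted p = 0.00283, limma). KIF3C (Kif3c), an alternative motor chain, did not pass, at 253 ± 29.7 and 261 ± 17.6.

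KIF13B (Kif13b), also a kinesin-3, fell at least 1.31-fold from 257 ± 9.15 to an undetected 196 ± 10.8 (adjusted p = 0.00201, limma). It passed the detection filter only through the M-CSF group. The paralogs Kif13a and Kif13b thus went opposite ways with RANKL. The difference between their responses was not tested. The falls of KIF3A, KIF3B and KIF13B were all lost with both SDs doubled (adjusted p = 0.0513, 0.203 and 0.118, limma).

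The other tested transport genes did not pass. KIF1B (Kif1b), which carries mitochondria and synaptic vesicle precursors in neurons, read 582 ± 65.1 and 609.9 ± 2.80. KIF16B (Kif16b), a motor of early endosomes, read 395 ± 29.1 and 447 ± 28.1 (log2 0.18 ± 0.10 SE, adjusted p = 0.141, limma). KLC2 (Klc2), a cargo-binding light chain of kinesin-1, read 211 ± 30.9 and 209.6 ± 18.6. The kinesin-1 heavy chains KIF5A, KIF5B and KIF5C all read at background in both groups, KIF5B at 150.5 ± 15.6 and 149.7 ± 4.02, as did KIF1A and KIF17, known mainly from neurons. Nothing can be said of a change in these genes, and whether their probes can read the transcripts was not examined. KIF21B failed the detection filter, at 183 ± 8.32 and 154 ± 2.99. When genes were chosen by signal in place of the detection p, it was lower with RANKL (log2 −0.25 ± 0.08 SE, adjusted p = 0.0202, limma), so that 3 transport kinesins rose and 4 fell.

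**Figure D3:**
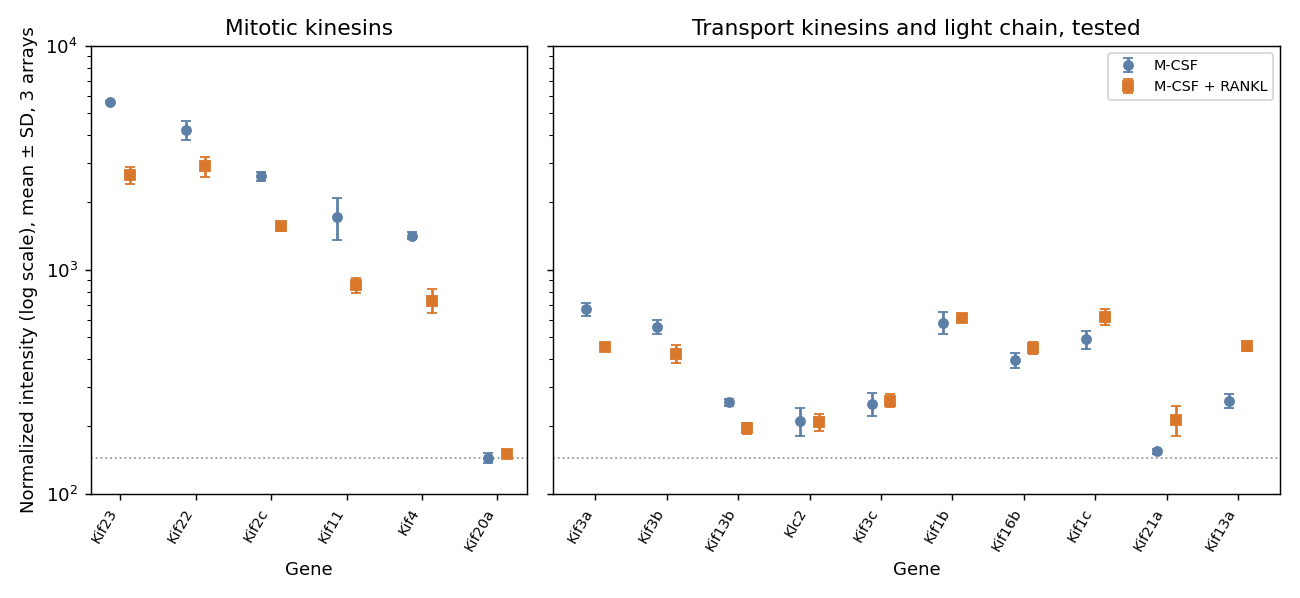
Normalized intensity (log scale, mean ± SD of 3 arrays) of the 6 mitotic kinesins and the 10 tested transport genes with M-CSF (circles) and M-CSF + RANKL (squares), where the dotted line is the background of 145. The 5 detected mitotic kinesins are lower with RANKL, Kif20a lies on the background line, and the transport genes go both ways.

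Set side by side, 5 of 5 tested mitotic kinesins fell, against 3 of 10 tested transport genes, where 29.0% of all tested genes fell. The 2 sets touch at their edges, since the fall of KIF3A (log2 −0.56) was as large as that of KIF22 (−0.54). The tested transport genes read 155 to 667 with M-CSF, near the background, which compresses folds, and the tested mitotic kinesins 1420 to 5624. After subtraction of background the median log2 folds were −1.13 and 0.10. No test of the difference between the sets was made, because the members were chosen with results of these data known.

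Among the other kinesins, 2 of 12 were tested. KIF2A (Kif2a), a microtubule depolymerase of spindle poles and neurons, fell 1.30-fold from 459 ± 40.4 to 354 ± 3.89 (adjusted p = 0.0055, limma), a call lost when tested alone on the linear means (adjusted p = 0.0913) and with both SDs doubled (adjusted p = 0.182). KIF16A, an older name of Stard9, did not pass, at 312 ± 29.1 and 266 ± 6.16 (adjusted p = 0.0543, limma). A second array gene of Stard9, 4831403C07RIK, fell from 562 ± 81.7 to 369.9 ± 20.5 (log2 −0.60 ± 0.12 SE, adjusted p = 0.000818, limma). KIF15 and KIF18A failed the detection filter although their signals were well above the floor. KIF15 (Kif15), which can stand in for Kif11 at the spindle, read 850.2 ± 18.2 and 599 ± 61.6. KIF18A (Kif18a), which limits chromosome movements at the metaphase plate, read 362 ± 4.76 and 283 ± 13.1. When genes were chosen by signal in place of the detection p, both were lower with RANKL (log2 −0.50 ± 0.10 SE and −0.35 ± 0.09 SE, adjusted p = 0.00137 and 0.0049, limma). In that setting 23.4% of all tested genes were higher and 23.6% lower, and of the members 4 rose and 19 fell. A second array gene of Kif15, 3930402I10RIK, which is not a member, was at background in both groups, at 121 ± 1.17 and 132 ± 4.17.

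The rest of this class was at or near background. KIF14, which acts in cytokinesis, read 173 ± 5.10 and 147 ± 10.9, and KIF24, linked to the centriole, 185 ± 1.90 and 168 ± 9.75. A second array gene of Kif14, E130203M01, which is not a member, also failed the detection filter, at 193 ± 25.8 and 189 ± 12.4. KIF9, which in human macrophages acts in matrix degradation at podosomes, read 143 ± 3.90 and 154 ± 4.22. The remaining 5, KIF12, KIF26B, KIF27, KIF2B and KIF7, were undetected too. Over all classes 22 untested members read under the floor in both groups, with medians of 151 with M-CSF and 149 with RANKL.

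Alpha tubulins went both ways. TUBA1A (Tuba1a) fell 1.45-fold from 15761 ± 1788 to 10879.9 ± 157 (log2 −0.53 ± 0.09 SE, adjusted p = 0.000235, limma). TUBA1, the older name of the same gene, fell 2.18-fold from 1265 ± 342 to 581 ± 64.1 (log2 −1.12 ± 0.17 SE, adjusted p = 0.00013, limma). Both array genes of Tuba1a were lower, but each lost its call when tested alone on the linear means (adjusted p = 0.0868 and 0.127). TUBA7 (Tuba3b) fell 1.41-fold from 1215 ± 61.8 to 863 ± 44.5 (log2 −0.49 ± 0.10 SE), and its adjusted p was 0.082 with both SDs doubled (limma). TUBA4 (Tuba4a) rose 1.18-fold from 229 ± 13.2 to 270.4 ± 13.04 (adjusted p = 0.034, limma), a call lost with no detection filter (adjusted p = 0.0751) and with both SDs doubled (adjusted p = 0.361).

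TUBA1B (Tuba1b), a broadly expressed alpha tubulin, read 70443 ± 563 and 69685 ± 3245. The highest means on the array were 71023 and 70773, so this probe lies near the upper limit of the signal, where a change may not be seen. TUBA6 (Tuba1c) read 12349 ± 1088 and 13959 ± 2430 and did not pass (adjusted p = 0.215, limma). TUBA8 read 173 ± 13.6 and 182 ± 8.13, under the floor in both groups. TUBA3 (Tuba3a) failed the detection filter, at 240.4 ± 5.11 and 233 ± 1.98. Alpha tubulin genes are close in sequence, and cross-hybridisation between their probes was not examined.

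Beta tubulins showed the largest fall of all members. TUBB2B (Tubb2b), a beta tubulin best known from developing neurons, went from 1143 ± 43.6 to 482 ± 33.7, a 2.37-fold fall (log2 −1.24 ± 0.10 SE, adjusted p = 5.04e-07, limma). TUBB4 (Tubb4a), a beta tubulin of brain, fell 1.19-fold from 237 ± 13.3 to 199 ± 14.5 (adjusted p = 0.03, limma). This call was lost with no detection filter (adjusted p = 0.0617, limma) and when tested alone on the linear means (adjusted p = 0.0678). With both SDs doubled it was lost too (adjusted p = 0.346, limma). TUBB5 (Tubb5), the broadly expressed beta tubulin, read 30999 ± 964 with M-CSF and 24295 ± 2531 with RANKL. Its detection p of 0.417 and 0.0992 kept it out of the test despite this signal. In the setting that chose genes by signal it was 1.28-fold lower (log2 −0.35 ± 0.08 SE, adjusted p = 0.00231, limma). TUBB1, the beta tubulin of platelets, TUBB2 (Tubb2a) and TUBB3, a neuronal beta tubulin, read at background in both groups.

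Beta tubulins listed under older array names, and so outside the selection, include a rise larger than that of any member. 2310057H16RIK (Tubb6) went from 17612 ± 1483 to 54233 ± 1670 (log2 1.62 ± 0.07 SE, adjusted p = 3.23e-09, limma), while 4930542G03RIK (Tubb4b) fell from 21684 ± 2194 to 14239 ± 1804 (log2 −0.61 ± 0.10 SE, adjusted p = 0.000285, limma). Both were named here after their values were seen.

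**Figure D4:**
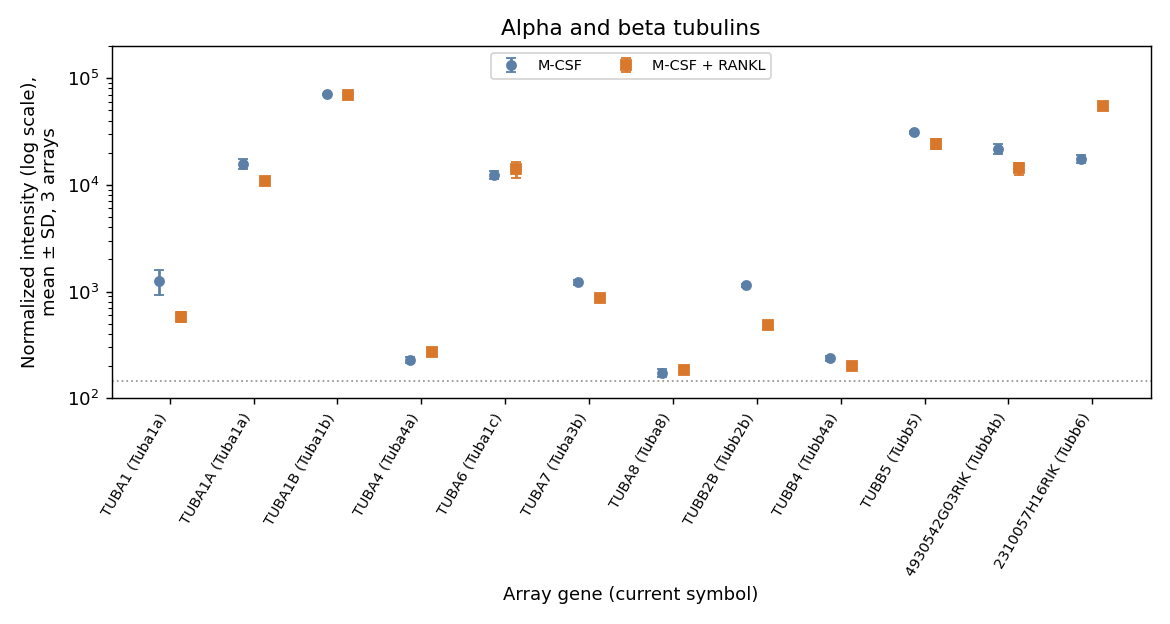
Normalized intensity (log scale, mean ± SD of 3 arrays) of alpha and beta tubulin array genes with M-CSF (circles) and M-CSF + RANKL (squares), where the dotted line is the background of 145. TUBA1B stays near the top of the scale in both groups, most others are lower with RANKL or change little, and 2310057H16RIK (Tubb6) rises from 17612 to 54233.

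Gamma tubulin genes were lower or did not pass. TUBGCP2 (Tubgcp2), a core subunit of the gamma tubulin small complex, fell 1.55-fold from 3207 ± 401 to 2067 ± 47.3 (log2 −0.63 ± 0.11 SE, adjusted p = 0.000284, limma). When tested alone on the linear means its adjusted p was 0.0811. TUBG1 (Tubg1), gamma tubulin itself, read 1487 ± 266 and 1229.6 ± 90.5 and did not pass (log2 −0.27 ± 0.13 SE, adjusted p = 0.0923, limma). TUBG2 and the complex subunits TUBGCP3, TUBGCP5 and TUBGCP6 read at background in both groups.

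Other genes of the spindle and of transport were set beside the members. Of 33 spindle and chromosome passenger genes on the array 21 were tested, of which 17 fell and 0 rose, with a median log2 fold of −0.71. Over all tested genes 29.0% fell and 28.9% rose. Among the genes past the detection filter the largest falls were those of Incenp (log2 −1.41 ± 0.12 SE), a scaffold of the passenger complex, Spc25 (−1.19 ± 0.12 SE), a kinetochore subunit, and Top2a (−1.14 ± 0.13 SE), which untangles DNA. When genes were chosen by signal, 28 were tested, of which 22 fell and 1 rose, against 23.6% and 23.4% of all tested genes. The rise was that of Espl1 (separase, which cuts cohesin at anaphase), from 491 ± 42.6 to 679 ± 61.5 (log2 0.47 ± 0.11 SE, adjusted p = 0.00311, limma). In that setting Ndc80, a kinetochore subunit, fell from 1010.3 ± 122 to 426 ± 51.2 (adjusted p = 2.39e-06, limma), more than Spc25. Anln, a protein of the cleavage furrow, fell from 2491 ± 85.4 to 1099 ± 108 (adjusted p = 8.07e-07, limma), more than Top2a. These 3 genes were named after their values were seen. Further mitotic kinesins outside the 6 had 4 tested genes, all lower. They are Kif18b (1222 ± 159 to 569 ± 33.5), Kifc1 (1039 ± 97.7 to 552 ± 67.1), Kif20b (1933 ± 123 to 1069.9 ± 97.6) and the member Kif2a.

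Transport partners went both ways. Kinesin adaptors had 13 tested genes, of which 7 rose and 4 fell, with a median log2 fold of 0.36. Rises were thus more frequent there than the 28.9% over all tested genes, and falls were near the 29.0%. Plekhm1, which links lysosomes to their transport machinery and without which osteoclasts resorb bone poorly, rose from 2580 ± 141 to 5654 ± 572 (log2 1.13 ± 0.10 SE). Fez2 fell from 4174 ± 238 to 2036 ± 61.7 and Arl8a, a GTPase that couples lysosomes to kinesin, from 16769 ± 1445 to 9937 ± 328. Arl8b, its paralog, named after its value was seen, rose from 6055 ± 451 to 9512 ± 502. When genes were chosen by signal, 8 of 15 adaptors rose and 4 fell, against 23.4% and 23.6% of all tested genes. The largest rise was then that of Kidins220, which had failed the detection filter. It went from 1972 ± 81.3 to 6494 ± 949 (log2 1.72 ± 0.11 SE, adjusted p = 4.72e-08, limma). Kidins220 was also named after its value was seen.

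Dynein and dynactin, the motor towards the minus end and its activator, had 6 rises and 4 falls among 20 tested genes. Their median log2 fold was 0.00. Over all tested genes 28.9% rose and 29.0% fell, and the counts of each list in this paragraph lie near or below these shares. The light intermediate chain Dync1li1 rose from 897 ± 57.6 to 1750.5 ± 69.7, the adaptor Hook3 fell from 2914 ± 701 to 1511 ± 67.1, and the light chain Dynlt3 rose from 5323 ± 347 to 8733 ± 733. Microtubule-binding proteins had 3 rises and 4 falls among 13, with a median log2 fold of 0.02. They were led by the fall of Stmn1 (stathmin, which takes up free tubulin) from 1976 ± 101 to 1032 ± 6.53. Ckap5, a microtubule polymerase, fell by 0.67 and Map1s by 0.56 on the log2 scale. Tubulin folding and modification genes had 7 rises and 3 falls among 21, with a median log2 fold of 0.03. Svbp, the partner of the vasohibin carboxypeptidases, fell from 3932 ± 460 to 2133 ± 284 and the folding cofactor Tbcb from 10975 ± 827 to 6256 ± 272, while Ttll12 rose from 461 ± 64.5 to 809 ± 160.

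**Figure D5:**
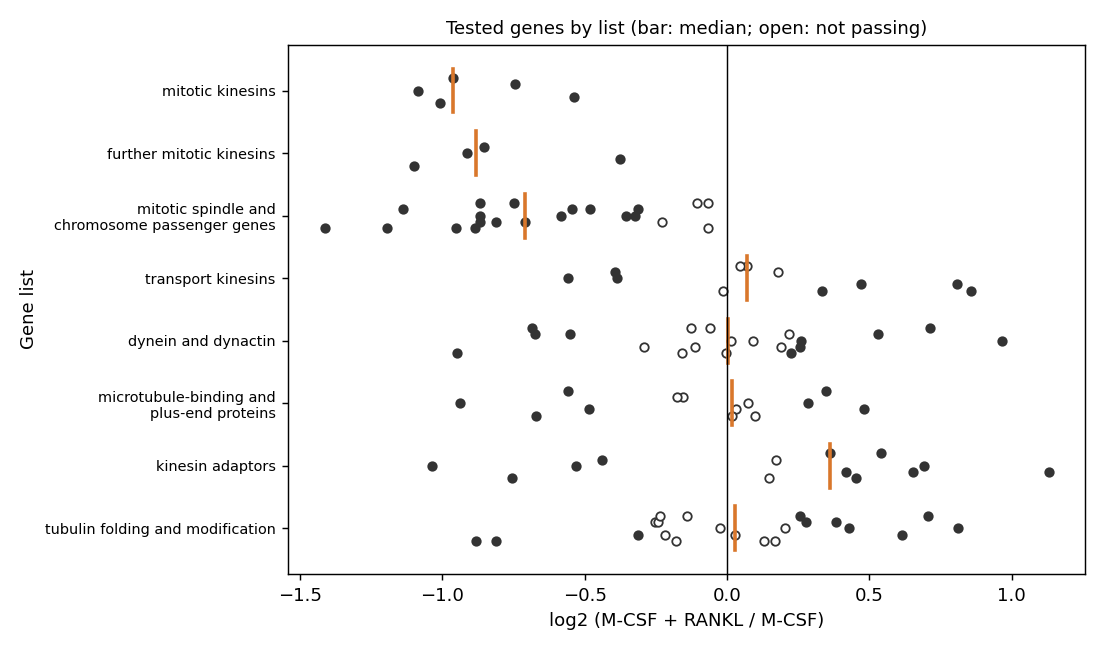
The log2 ratio of M-CSF + RANKL over M-CSF for the tested genes of each list, taking the brightest array gene of a symbol, where bars mark medians and open points did not pass. The mitotic lists lie left of 0 with medians of −0.96, −0.88 and −0.71, and the transport lists lie on both sides.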

How the data were processed

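The 2 deposited samples were M-CSF and M-CSF + RANKL, each a mean over 3 biological replicates per the labels. Per the file headers, the deposited values are linear normalized intensities with their SD, beside a detection p-value for every array gene in either group. The sources used here do not give the normalization method or software of the authors. Signal over background and the number of arrays limit the precision: over all array genes, the typical (median) SD was 6.89% of the M-CSF mean and 6.78% of the RANKL mean.

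From these, the log2 ratio of the means was computed, its variance was taken from the deposited SDs by the delta method, pooled on 4 degrees of freedom and moderated along an intensity trend by squeezeVar of limma 3.58.1 (R 4.3.3), which gave 7.49 prior degrees of freedom. The two-sided p-values were adjusted by the Benjamini-Hochberg method, at a threshold of 0.05, over the 11012 genes whose detection p was under 0.01 in either group. The method was tested on simulated data. Background is the median signal of undetected genes. Floors are the lowest signals detected by a detection p that moves in equal steps. For 27 of the 54 members it does not do so in both groups, and such values do not follow the signal.

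Array names were matched to symbols with the RefSeq table of GRCm38.p6, 46 members by current symbol and 8 by 1 synonym. Members and lists were chosen with earlier results of these data known. The text names all 6 mitotic kinesins, the called transport kinesins and tubulins, the other members as values, and in each further list the 3 called genes with the largest log2 fold. Alternatives varied the moderation, the test, the SDs, the filter, the background, the centring and the array gene used per symbol.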

Additional observations from a re-analysis of the deposited data

How the results depend on the processing

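The 12 alternatives run, 3 of them chosen after seeing the data, did not all give a value for every member. The log2 fold of an array gene is the same ratio of means in every alternative except background subtraction and centring. The others therefore could not change a direction. No called member changed direction with background subtracted or with centring. TUBA8, which did not pass, went from a log2 fold of 0.08 to −0.03 with background subtracted. With each gene tested alone on the linear means, 3868 genes were called over the whole array, 2 members were higher and 9 lower, and 1 transport kinesin was higher. With both SDs doubled these counts were 3054, 1, 8 and 1, and 0 transport kinesins were lower (limma). The number of mitotic kinesins called lower was 4 in each of these settings and 5 in the others that gave it. With background subtracted, the median log2 fold was −1.13 for the mitotic kinesins and −0.42 for the tubulins. With genes kept only where the detection p moves in equal steps, a setting chosen after seeing the data, 1 member was higher, 1 transport kinesin was higher and 1 lower, and the transport median was 0.18. With the family taken by current symbol, also chosen after seeing the data, 7 members were higher. Of the comparisons of single members with an alternative, 244 kept the same outcome and 21 lost a call. The 244 include the 9 tested members that did not pass and so had no call to lose. Of the 21 losses, 8 came with each gene tested alone and 10 with both SDs doubled. The cause was not tested. No paired analysis was possible because values of single arrays and their replicate numbers are not given, and for the same reason no replicate could be left out. Members near the background of 145 have compressed folds, and a change in the undetected ones cannot be seen.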

Other observations

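Further kinesin and tubulin genes stood outside the selection, some under older array names and others, such as TUBE1, TUBD1 and KIFC3, by names that the rule does not cover. They were picked here after their values were seen. 1200014P03RIK (Klc4), a light chain of kinesin-1, rose 1.81-fold from 1658 ± 68.9 with M-CSF to 3006 ± 77.4 with RANKL (log2 0.86 ± 0.09 SE, adjusted p = 6.2e-06, limma). 2810484G07RIK (Tubb1) rose at least 1.16-fold from an undetected 129 ± 8.78 to 230.2 ± 13.5 (adjusted p = 5.77e-06, limma), while the member TUBB1 read at background in both groups. 2810484G07RIK passed the detection filter only through the RANKL group, where it is high. The 2 array genes of Tubgcp4, a subunit of the gamma tubulin ring complex, gave log2 folds of −0.51 ± 0.14 SE and −0.13 ± 0.10 SE, of which only the first passed (adjusted p = 0.0099 and 0.288, limma). TUBE1 (Tube1), epsilon tubulin of the centriole, fell from 346 ± 18.7 to 246 ± 42.3 (adjusted p = 0.00427, limma). It passed the detection filter only through the M-CSF group, where it is high. TUBD1 (Tubd1), delta tubulin, read 400.2 ± 14.7 and 459.7 ± 37.5 and did not pass (adjusted p = 0.0992, limma). KIFC3 (Kifc3), a minus-end motor, read 207 ± 35.6 and 236 ± 20.6 and did not pass (adjusted p = 0.21, limma).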
